A study of Homo sapiens with 2 samples.

Results

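CCL2-positive cells were cytokine-treated MDA-MB-453 cells chosen by their CCL2 count alone, in which at least 1 unique molecular identifier (UMI) of CCL2 had been counted, and they numbered 989 of the 3163 cells of that library and of 5985 cells in the series. They were compared with the 2174 cells of the same library that had 0 CCL2 UMIs, called CCL2-0 cells, and CCL2 itself was left out of the ranking of genes. MDA-MB-453 is an established human breast cancer line, wild type by the labels and described there as triple-negative. The 2 cultures received IL1β and TNFα together, at 10 ng/ml by the labels, or water as vehicle, each for 24 hours, and each gave 1 droplet library of transcript 3′ ends. The vehicle library held 2822 cells, 29 of them with a CCL2 UMI. Cells of a culture are not replicates, so no test was made, and every interval is an exact 95% interval that covers counting error only.

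CCL2 (also MCP-1) is a secreted CC chemokine that draws monocytes and other CCR2-bearing cells into inflamed tissue and tumors. Its gene is a classical target of NF-κB, the transcription factor that the IL1 and TNF receptors switch on through IκB kinase, and AP-1 also acts on it. Carcinoma cells, fibroblasts, endothelium and macrophages can all make it. In GRCh38, CCL2 (ENSG00000108691) is a protein-coding gene on the plus strand of chromosome 17, from 34255274 to 34257208. Within a cell line exposed to the same dose of cytokine, single-cell RNA sequencing (scRNA-seq) shows which cells hold the transcript and what else those cells express, which is the comparison made here.

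Promoter windows are printed first because the chemokines and cytokines that ran with CCL2, and TDO2, which ran against it, are genes whose upstream bases were searched for NF-κB and AP-1 motifs. Each window is the 250 bases before the RefSeq start site (GRCh38.p14), read 5′ to 3′ on the strand of the gene. Capitals mark a match on either strand to the NF-κB consensus or to the AP-1 consensus TGANTCA. CCL2 and CCL5 had no entry.
IL6 (chr7:22726950-22727199, plus strand): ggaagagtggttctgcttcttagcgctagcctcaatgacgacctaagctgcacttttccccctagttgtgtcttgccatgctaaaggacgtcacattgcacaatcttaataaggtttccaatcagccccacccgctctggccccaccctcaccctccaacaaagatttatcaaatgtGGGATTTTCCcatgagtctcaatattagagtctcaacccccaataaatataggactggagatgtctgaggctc
CXCL2 (chr4:74099196-74099445, minus strand): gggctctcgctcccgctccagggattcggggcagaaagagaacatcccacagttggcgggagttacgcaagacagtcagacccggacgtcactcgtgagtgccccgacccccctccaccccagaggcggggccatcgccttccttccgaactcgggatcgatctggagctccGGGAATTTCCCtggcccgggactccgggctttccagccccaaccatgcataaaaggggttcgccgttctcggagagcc
CXCL8 (chr4:73740319-73740568, plus strand): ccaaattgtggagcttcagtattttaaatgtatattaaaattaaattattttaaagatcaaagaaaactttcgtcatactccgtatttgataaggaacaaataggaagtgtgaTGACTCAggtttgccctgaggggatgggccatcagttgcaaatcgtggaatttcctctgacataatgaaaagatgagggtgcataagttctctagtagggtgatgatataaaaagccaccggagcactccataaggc
TDO2 (chr4:155903446-155903695, plus strand): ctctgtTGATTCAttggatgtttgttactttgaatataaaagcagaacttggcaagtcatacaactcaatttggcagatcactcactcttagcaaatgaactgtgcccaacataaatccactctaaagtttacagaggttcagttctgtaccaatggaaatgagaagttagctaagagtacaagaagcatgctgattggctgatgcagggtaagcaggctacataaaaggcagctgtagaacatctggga

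The windows of IL6 and CXCL2 held the NF-κB consensus, in CXCL2 as 2 overlapping matches on a palindromic stretch, and those of CXCL8 and TDO2 held the AP-1 consensus. Of 35116 RefSeq windows of this length, 9.96% held the NF-κB consensus and 6.57% held the AP-1 consensus. Of the 6905 genes measured here with a window (the first listed per gene), 11.5% held the NF-κB and 3.46% the AP-1 consensus. A match is a description of letters and not of a bound site, and a window without one says nothing about the factor.

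CCL2 was spread very unevenly over the treated cells. The members held 7836 CCL2 UMIs, or 355 UMIs per 1000000 UMIs of those cells (CPM; 347 to 363), with a median of 3 and a maximum of 94 UMIs in a cell. Exactly 1 UMI was counted in 350 cells, 2 to 4 in 240 cells, 5 to 9 in 150 cells and 10 or more in 249 cells. The 249 cells of the top class were 7.87% of the library and held 74.9% of its CCL2 UMIs. The library mean was 2.48 CCL2 UMIs per cell, and if every cell had held that mean share of its own depth, 90.4% of cells would have had at least 1. The share counted was 31.3% (Clopper-Pearson 29.7 to 32.9%), and the variance over cells was 23.1 times the mean. These counts chose the cells and are given as a description. The limit between members and the rest fell between 1 and 0 UMIs, so the cells just inside it, at 44.5 CPM, are those with a lone CCL2 molecule, and a count of 0 does not show that a cell lacked the transcript.

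**Figure D1:**
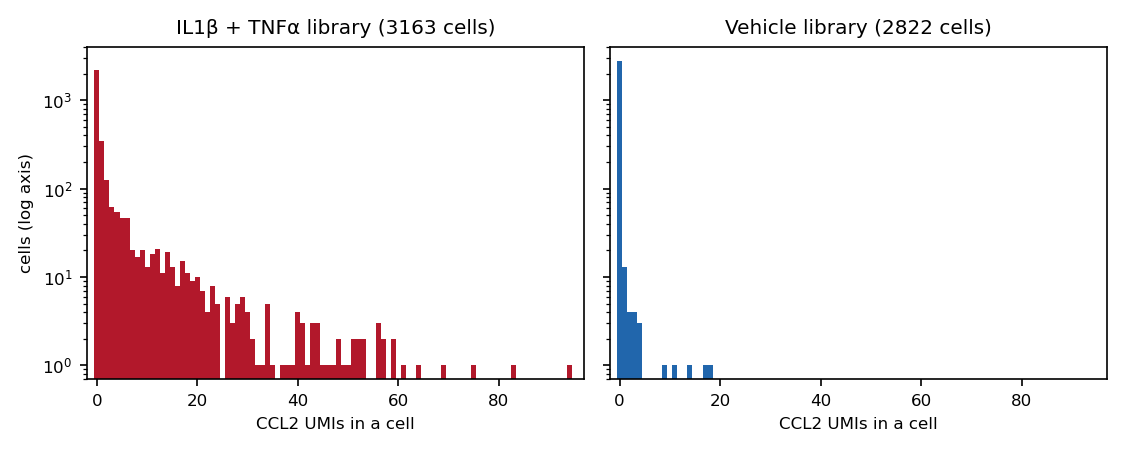
Number of cells (log axis) at each count of CCL2 UMIs, in the IL1β + TNFα library on the left and the vehicle library on the right. Treated cells reach 94 CCL2 UMIs and 249 of them hold 10 or more, while the highest vehicle cell has 18.

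The share of positive cells varied modestly with depth. Positive cells had a median of 21838 UMIs and 3963 genes, against 21278 UMIs and 3933.5 genes in CCL2-0 cells, and median mitochondrial shares were 6.39% and 6.55%. Over 10 equal classes of depth the positive share ran between 26.9% and 36.6%, lowest in the third class and highest in the deepest. When each cell was thinned to 15000 UMIs, 825 of 3033 treated cells (27.2%) and 22 of 2586 vehicle cells (0.851%) kept a CCL2 UMI, with 130 treated and 236 vehicle cells left out as shallower. Without thinning the share was 31.3% in the treated library, at a median depth of 21508 UMIs, and 1.03% (0.689 to 1.47%) in the vehicle library, at 20249 UMIs. The library holds no cell type that should lack CCL2, so CCL2 RNA free in the droplets was not measured within it. Only 8 barcodes occurred in both libraries, and 4 of them belonged to members.

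Members were found in every phase and cluster that the authors deposited, in unequal shares. The share was 39.5% (34.1 to 45.1%) of 324 cells called S phase, 30.4% (28.7 to 32.2%) of 2799 called G1 and 22.5% (10.8 to 38.5%) of 40 called G2/M. Among the authors' clusters it ran from 14.9% (9.36 to 22.1%) in cluster 5 to 38.7% (33.0 to 44.7%) in cluster 2. Cells with 10 or more CCL2 UMIs had another order, and were most common in cluster 1 at 11.5% (9.31 to 14.1%) and least in cluster 5 at 2.99% (0.819 to 7.47%). Whether CCL2 or genes that run with it took part in making the clusters is not given in the sources used here.

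The members carried an epithelial keratin of the line, and markers of other cell types known to make CCL2 were low. KRT8, a keratin of simple epithelium, was at 1095 CPM in positive and 1058 CPM in CCL2-0 cells. The 3 of 8 myeloid markers listed in the matrix summed to 1.90 CPM in positive and 2.02 CPM in CCL2-0 cells, and the 1 of 3 endothelial markers to 0.317 and 0.0842 CPM. Of 6 fibroblast markers only COL1A1 was listed, at 21.8 and 19.3 CPM, and at 20.9 CPM in the vehicle library. The members therefore kept the name of treated line cells with CCL2.

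Across the 8623 genes at 5 CPM or more in either group, positive and CCL2-0 cells were close. A gene was called where its ratio was 1.5 or more in either direction and its whole interval lay on that side of 1, and 63 genes (0.731% of those measured) were higher and 14 (0.162%) were lower in positive cells. With the limit lowered to 25% (a ratio of 5 to 4, the interval as before), 234 were higher (2.71%) and 165 lower (1.91%). The lists below are counted at that 25% limit. The median log2 ratio, positive over CCL2-0, was -0.03 over all measured genes. Of the 63 higher genes 58 were above CCL2-0 cells in cells with 1 CCL2 UMI, beside 4059 of all 8623 genes, and 59 were higher in cells with 10 or more than in cells with 1, beside 3481 of 8623. Of the 14 lower genes 10 were lower at 10 or more UMIs than at 1, beside 5142 of 8623, a share not far from that of all genes. The genes were called in these same cells, so the counts describe how the difference was spread over the classes and lend it no support.

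Secreted inflammatory mediators led the higher genes. IL6, the gp130 cytokine that activates STAT3, stood at 6.48 CPM in positive and 0.295 CPM in CCL2-0 cells, a log2 ratio of 4.46 (3.67 to 5.37). Its level by CCL2 class was 0.295 CPM at 0 UMIs, 4.19 at 1, 2.06 at 2 to 4, 2.46 at 5 to 9 and 16.2 at 10 or more. IL6 was nonetheless rare, with 143 UMIs in 41 of the 989 members and 14 UMIs in 11 CCL2-0 cells. CXCL8, the neutrophil chemokine IL-8, was at 155 and 87.9 CPM (log2 ratio 0.82, 0.75 to 0.89). By class it was at 87.9 CPM at 0 UMIs, 111 at 1, 125 at 2 to 4, 128 at 5 to 9 and 261 at 10 or more. CXCL2, another ligand of CXCR2, was at 19.6 and 7.91 CPM (1.31, 1.11 to 1.51), and climbed in the same classes through 10.3, 13.5 and 20.6 to 38.0 CPM.

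The share of cells that held these transcripts moved in the same direction as the level. After thinning to 15000 UMIs, CXCL8 was found in 51.2% of positive cells (48.0 to 54.4%) and 39.6% of CCL2-0 cells (37.5 to 41.8%). CXCL2 was found in 16.8% (14.4 to 19.3%) and 8.73% (7.56 to 10.03%). IL32, a proinflammatory cytokine, was found in 23.3% (20.6 to 26.1%) and 15.5% (14 to 17.1%), and its level was 30.3 against 15.6 CPM (log2 ratio 0.96). In the vehicle library these transcripts were at 0.273 CPM for CXCL8, 0.0512 for CXCL2, 0.154 for IL6 and 0 for IL32, so CCL2-0 cells also carried CXCL8, CXCL2 and IL32 at far above the vehicle level.

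**Figure D2:**
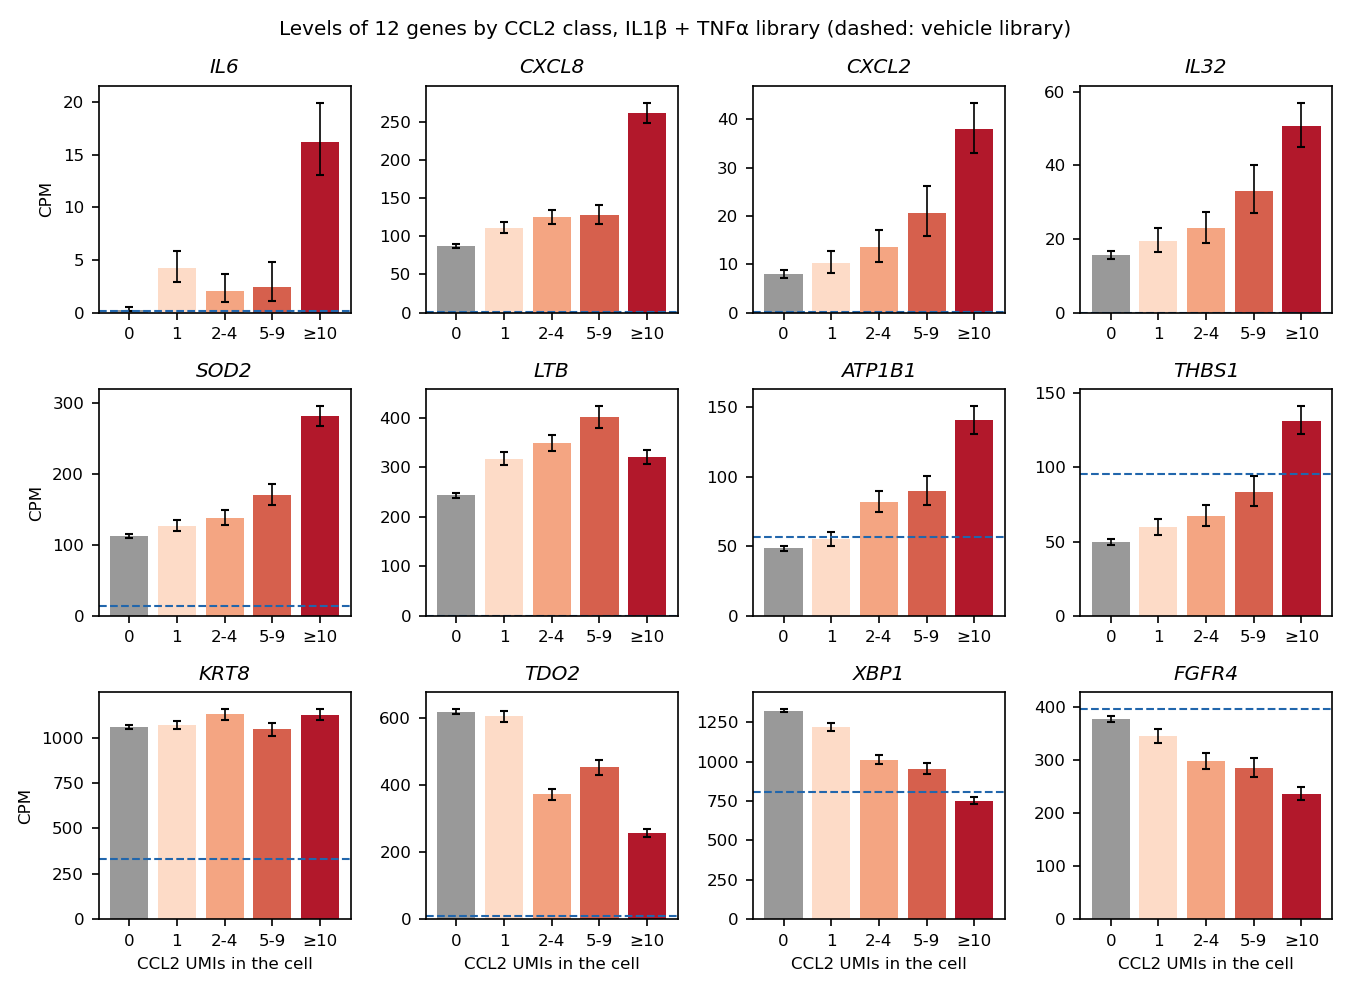
Level of 12 genes (CPM, linear axes from 0) in cytokine-treated cells with 0, 1, 2 to 4, 5 to 9 and 10 or more CCL2 UMIs; error bars are exact 95% Poisson intervals for counting error and the dashed line is the vehicle library. CXCL8 reaches 261 CPM in the top class against 87.9 at 0 UMIs, LTB peaks at 401 CPM in the class of 5 to 9, KRT8 stays between 1047 and 1128, and TDO2 and XBP1 are lowest in the top class.

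The fixed list of 40 cytokines and growth factors had 12 measured members, of which 7 were higher past 25% and 0 lower, with a median log2 ratio of 0.43. The 7 were IL6, IL32, EBI3, TNFSF15, LTB, TNF and GDF15. IL6 and TNFSF15 counted as measured only because they reached 5 CPM in positive cells, which raises both the count and the median. EBI3, the shared subunit of IL-27 and IL-35, was at 10.2 and 5.28 CPM (log2 ratio 0.96), and TNFSF15, a TNF family ligand, at 5.07 and 2.76 CPM (0.88). LTB, which joins lymphotoxin alpha at the membrane, was at 338 CPM in positive and 243 CPM in CCL2-0 cells, and did not follow CCL2 to its top class, with 401 CPM at 5 to 9 UMIs and 321 CPM at 10 or more. TNF itself was at 44.8 and 34.3 CPM, in 45.3% and 36.7% of thinned cells.

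Other chemokines differed less between positive and CCL2-0 cells, or were lower. Of 4 measured CXC, CX3C and related chemokines, CXCL8 and CXCL2 were higher, CXCL16, a transmembrane ligand, was at 32.9 and 32.6 CPM, and CXCL10, an interferon-induced ligand of CXCR3, was at 8.34 and 9.45 CPM. CXCL16 reached 40.5 CPM at 10 or more CCL2 UMIs. CCL28, a mucosal chemokine, was at 69.1 and 61.5 CPM, and at 58.5, 70.7, 71.5 and 81.1 CPM in the classes from 1 UMI to 10 or more. CCL20, the ligand of CCR6, stayed under 5 CPM, at 2.72 and 1.81 CPM (log2 ratio 0.59, interval above 0), but was at 5.17 CPM at 10 or more CCL2 UMIs. CCL5 (RANTES), which draws T cells, was among the 14 lower genes, at 2.95 and 8.37 CPM (log2 ratio -1.51, -1.91 to -1.13). In cells with 10 or more CCL2 UMIs its log2 ratio to CCL2-0 cells was -0.55, under the 1.5-fold limit. CCL5 was therefore not lowest where CCL2 was highest. CCL5 was found in 2.0% of thinned positive cells (1.21 to 3.11%) and 1.63% of thinned CCL2-0 cells (1.13 to 2.27%), so the share of cells did not carry the lower level. The interferon-induced genes IFIT1 (3.58 and 11.2 CPM, in 3.69% and 4.41% of thinned cells) and OASL (3.49 and 6.08 CPM, in 1.90% and 1.92%) showed the same form. Interferon-stimulated genes were not lower as a list. Of 26 measured, 14 had a log2 ratio above 0, beside 3531 of all 8623 genes, with a median of 0.05. IFI27, on the same list, was higher, at 16.5 and 10.6 CPM (log2 ratio 0.64). CCR2, the receptor of CCL2, was near its floor, at 0.227 and 0.147 CPM.

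The NF-κB machinery itself differed little. NFKB1 was at 23.9 and 23.2 CPM in positive and CCL2-0 cells, NFKB2 at 45.6 and 41.3, RELB at 30.2 and 27.5, and the receptors TNFRSF1A at 48.7 and 47.8 and IL1R1 at 39.5 and 39.2 CPM. NFKBIA, the inhibitor IκBα that NF-κB induces, was at 1166 and 1023 CPM (log2 ratio 0.19). The list of subunits and feedback genes had a median of 0.05, and 4 of its 26 measured members were higher past 25% with 0 lower. The 4 were TNFAIP3, BIRC3, TIFA and NFKBIZ, with TNFAIP3, the deubiquitinase A20, at 10.2 and 6.94 CPM and BIRC3, the ligase cIAP2, at 48.9 and 34.6 CPM. Among 21 other measured NF-κB targets 6 were higher and 0 lower, with a median of 0.14. TNFAIP2, among the 6, reached 5 CPM in positive cells only (5.89 and 2.65 CPM). Also of the 6, SOD2, the mitochondrial superoxide dismutase, was at 175 and 112 CPM, and ICAM1, a leukocyte adhesion molecule, at 14.8 and 11.1 CPM.

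Antigen presentation and acute phase genes leaned toward the positive cells. Of 17 measured genes of MHC class I and the immunoproteasome, 15 had a log2 ratio above 0, beside 3531 of all 8623 genes, and 4 were higher past 25%, namely PSMB9, PSMB8, ERAP2 and HLA-B, with a list median of 0.17. PSMB9, an immunoproteasome subunit, was at 17.5 and 11.6 CPM, and B2M, the light chain of MHC class I, at 1799 and 1548.5 CPM. SERPINA3, an acute phase protease inhibitor, was at 76.1 and 42.8 CPM, PI3, the elastase inhibitor elafin, at 93.0 and 52.8, and CFB, complement factor B, at 85.6 and 59.7. S100A8 and S100A9, the calprotectin subunits and among the most abundant treated transcripts, went slightly the other way, S100A9 at 4391 CPM in positive and 4863 CPM in CCL2-0 cells. S100A7, psoriasin, had the largest ratio of genes at 20 CPM or more (41.5 and 11.3 CPM), but 1 positive cell held 466 of the 916 UMIs, and thinned shares were 4.85% and 4.17%.

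Matrix, adhesion and cytoskeletal genes also ran with CCL2. All 15 measured genes of the mesenchymal, matrix and adhesion list had a log2 ratio above 0 (median 0.23), beside the same 3531 of 8623 genes, and 3 were higher past 25%, namely THBS1, CCN1 and S100A6. THBS1, the matricellular protein thrombospondin-1, was at 83.3 and 49.9 CPM, and by class at 49.9 CPM at 0 UMIs, 59.7 at 1, 67.3 at 2 to 4, 83.5 at 5 to 9 and 132 at 10 or more. LAMC1 and LAMB3, chains of laminins, were at 22.1 and 12.6 CPM and at 9.61 and 5.07 CPM. MMP13, a collagenase, was at 58.5 and 25.8 CPM (log2 ratio 1.18). ATP1B1, the beta subunit of the sodium pump, was at 88.3 and 48.5 CPM and found in 58.0% of thinned positive and 38.9% of thinned CCL2-0 cells.

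Cell cycle genes showed 2 patterns. CDKN1A and CDKN2B, the CDK inhibitors p21 and p15, were higher in positive cells, at 24.4 and 13.2 CPM and at 5.07 and 2.13 CPM, as was the p53-regulated death gene BBC3 (PUMA) at 14.5 and 6.69 CPM. S phase genes were also higher, with 13 of 36 measured members higher past 25%, 0 lower and a list median of 0.23. RRM2, a ribonucleotide reductase subunit, was at 20.5 and 12 CPM, but in G1 cells alone its log2 ratio was -0.12 and the list median was -0.10, beside the larger share of members called S phase (12.9% of positive and 9.02% of CCL2-0 cells). PTTG1, the securin of mitosis, was lower, at 12.1 and 22.5 CPM (log2 ratio -0.89). At 10 or more CCL2 UMIs, the median of the G2 and M phase list was -0.41, with 0 of 249 cells called G2/M, against -0.02 over all positive cells.

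**Figure D3:**
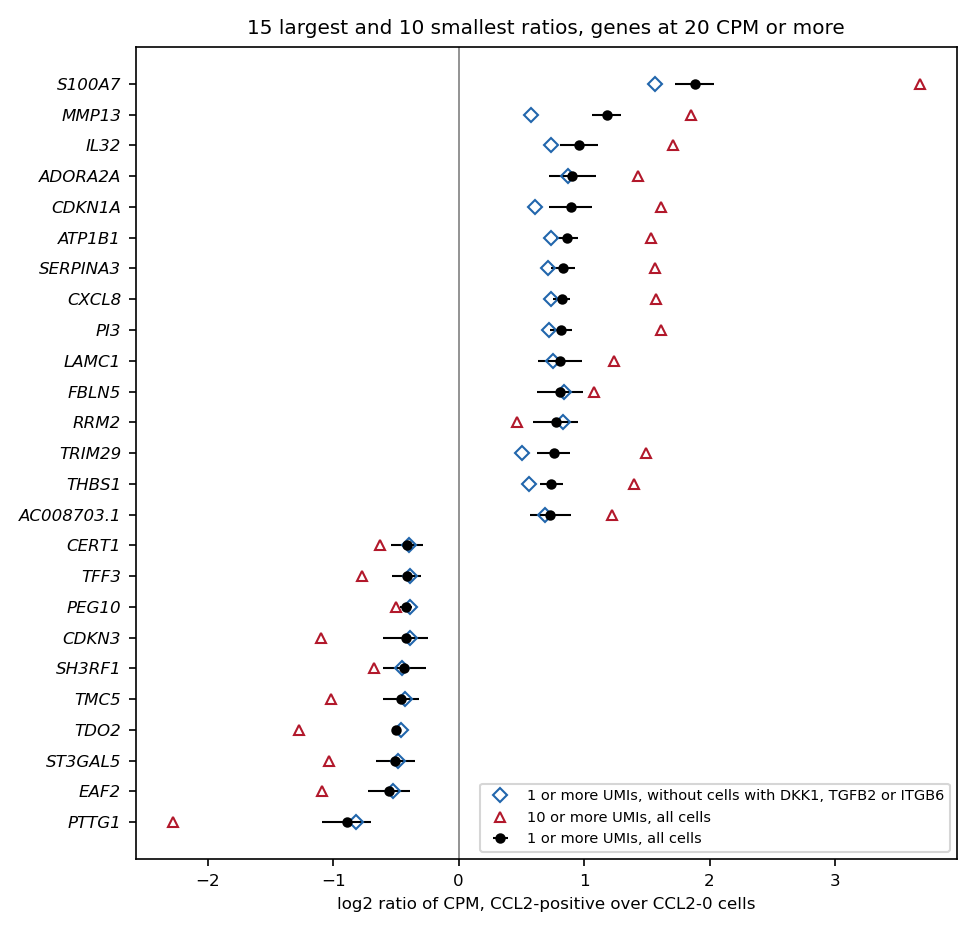
Log2 ratio of CPM, CCL2-positive over CCL2-0 cells, for the 15 largest and 10 smallest ratios among genes at 20 CPM or more; black points carry exact 95% counting intervals, open diamonds leave out cells with a UMI of DKK1, TGFB2 or ITGB6, and open triangles take only cells with 10 or more CCL2 UMIs. The triangles lie farther from 0 than the black points for all of these genes except RRM2, and MMP13 is at 0.58 when the DKK1, TGFB2 or ITGB6 cells are left out, against 1.18 with them.

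TDO2, tryptophan dioxygenase at the first step of kynurenine production, ran against CCL2. It was at 438 CPM in positive and 620.2 CPM in CCL2-0 cells (log2 ratio -0.50, -0.53 to -0.47), under the 1.5-fold limit. By class it was at 620.2 CPM at 0 UMIs, 606 at 1, 373 at 2 to 4, 453 at 5 to 9 and 257 at 10 or more, so the classes were not strictly ordered and the top class was 2.41-fold below cells with 0. TDO2 was found in 63.1% (60.0 to 66.2%) of thinned positive and 70.5% (68.5 to 72.5%) of thinned CCL2-0 cells. Every class stayed far above the 9.30 CPM of the vehicle library. The downstream enzymes did not follow TDO2, since KMO was at 256 and 237 CPM and KYNU at 86.1 and 62.4 CPM in positive and CCL2-0 cells.

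XBP1 and FGFR4 were lower in order of CCL2 class, while most luminal genes measured differed little. XBP1, a transcription factor of the unfolded protein response that is also high in luminal cells, was at 1012 and 1323 CPM, with 1323 CPM at 0 UMIs, 1220.5 at 1, 1013 at 2 to 4, 955 at 5 to 9 and 753 at 10 or more. FGFR4, a fibroblast growth factor receptor, had the same order, with 376, 345, 297, 285 and 236 CPM. Of 32 measured genes of the luminal list, 4 were lower past the same ratio (CDH1, TFF3, XBP1 and FGFR4) and 1, PIP, was higher, with a median of -0.06. None of the 14 genes lower at 1.5-fold was on that list. The list is a selection, and the 14 included MUCL1 (log2 ratio -0.71), which it does not hold. CDH1, E-cadherin, was at 4.58 and 6.57 CPM. The other members of the unfolded protein response list did not move with XBP1, which was the only one of 33 past that ratio, and the list median was -0.04.

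**Figure D4:**
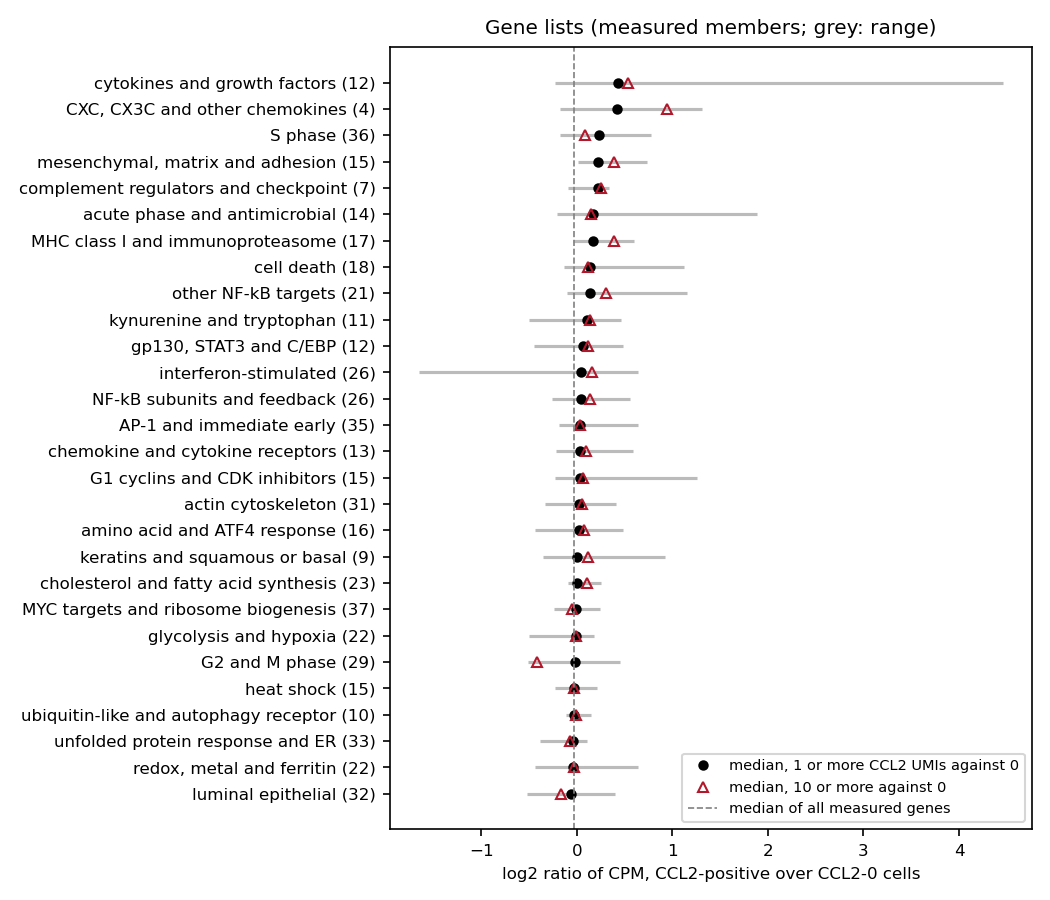
Median log2 ratio of the 28 gene lists that had 3 or more measured genes (black points, CCL2-positive over CCL2-0 cells; triangles, 10 or more CCL2 UMIs over 0; grey lines, lowest to highest member; dashed line, all measured genes). Cytokines and growth factors have the highest median at 0.43 and luminal genes the lowest at -0.06. IL6 and TNFSF15 entered the cytokine list only through their level in positive cells, which raises its median.

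Cell by cell, the strongest relation to CCL2 was negative. Over 3163 cells, which share a library, the Pearson r of log-normalized values was -0.37 for XBP1 and -0.28 for FGFR4, followed by DBI, ASPH and STARD10 at -0.22 to -0.20. The highest positive values were 0.29 for ATP1B1, 0.28 for TMSB4X (thymosin beta 4, which binds actin monomers) and 0.26 for THBS1. ZFP36L1, ARHGAP29, IL32, TRIM29, B2M, IFNGR1 and CXCL8 followed at 0.24 to 0.20. Rank correlations had the same signs and were smaller, 0.24 for ATP1B1 and -0.29 for XBP1. These are descriptions of sparse counts and no test was made of them.

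A small set of cells, most of them positive, held transcripts that nearly all others lacked. It was chosen after the values had been seen. DKK1, a secreted inhibitor of Wnt signaling, had 133 UMIs in 24 members and 26 UMIs in 5 CCL2-0 cells (6.03 and 0.547 CPM, log2 ratio 3.46). TGFB2, a transforming growth factor, had 68 UMIs in 31 members and 14 UMIs in 8 CCL2-0 cells, and ITGB6, an integrin subunit that takes part in activating latent TGFβ, had 63 UMIs in 22 members and 16 UMIs in 7 CCL2-0 cells. Cells with a UMI of at least 1 of the 3 genes numbered 48 of the 989 members and 15 of the 2174 CCL2-0 cells. In the 48, CCL2 was at 1193 CPM, against 313 CPM in the other 941 members. IL6 was at 93.9 and 2.05 CPM, SOD2 at 718 and 148, TMSB4X at 8186 and 2986, and LINC01133, a long noncoding RNA, at 141 and 6.28 CPM. TDO2 was at 142 and 453 CPM, XBP1 at 479 and 1039, and LTB at 205 and 345 CPM. The profile was not particular to positive cells. In the 15 CCL2-0 cells with such a UMI, TMSB4X was at 5888 CPM, SOD2 at 486, XBP1 at 601 and TDO2 at 5.86 CPM. In the other 2159 CCL2-0 cells they were at 2416, 110, 1329 and 625 CPM. IL6 was at 11.7 CPM in the 15 and 0.212 CPM in the 2159.

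Epithelial genes were detected in the 48 cells, at keratin levels near those of the other members and at a lower EPCAM level. KRT8 was at 968 CPM in them and 1101 CPM in the other members, KRT18 at 1459 and 1498, and EPCAM at 154 and 232 CPM. Their median depth was 21607.5 UMIs, against 21842 UMIs in the other members, and 37 of the 48 lay in the authors' cluster 1. What sets these cells apart, including whether they descend from the same cells as the rest of the culture, was not tested, so their values describe a set of barcodes and not a named state of the line.

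These cells carried part of the comparison. Without all 63 cells with a UMI of the 3 genes, 36 genes were called higher and 15 lower, and 32 of the 63 higher and 13 of the 14 lower genes were still called. DKK1 then had 0 UMIs by construction, and all of the other 62 kept a log2 ratio above 0, as all 14 lower genes stayed below 0. CXCL8 (146 and 87.6 CPM), CXCL2 (17.1 and 7.69), IL32 (25.6 and 15.3), ATP1B1 (78.7 and 47.2), SERPINA3 and PI3 were still called. SOD2 (148 and 110 CPM, log2 ratio 0.43), MMP13 (0.58), THBS1 (0.56), TRIM29 (0.51) and CDKN2B (0.47) fell under the limit. IL6 kept a log2 ratio of 3.27 but dropped under 5 CPM. The lower values hardly moved, at -0.46 for TDO2 and -0.35 for XBP1.

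The vehicle culture allowed the same split by CCL2 in cells that took no part in the choice, and the direction was shared by most called genes that could be measured there, though not by every gene described above. Its 29 CCL2-positive cells held 114 CCL2 UMIs, up to 18 in a cell, and 610988 UMIs in all. Of the 63 genes higher in treated positive cells, 41 were at 5 CPM or more in the vehicle comparison, and 40 of these (97.6%) were above 0 there, 31 with an interval above 0, against 47.5% of all 8361 genes measured in both. The exception was STC1, with 1 UMI in the 29 cells. Of the 9 lower genes measured, 0 were above 0 and 3 had an interval below 0. The other 22 higher and 5 lower genes were under 5 CPM there. Sizes also differed, since KRT8 was at 1116 CPM in CCL2-positive and 322 CPM in CCL2-0 vehicle cells (log2 ratio 1.80, against 0.05 in treated cells) and SOD2 at 14.7 and 13.2 CPM (0.16, against 0.64). BBC3, under 5 CPM in both, was at 1.64 and 3.09 CPM.

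In that library ATP1B1 was at 285 CPM in CCL2-positive and 54.1 CPM in CCL2-0 cells, TMSB4X at 6926 and 1666, THBS1 at 252 and 94.2, CDKN1A at 62.2 and 19.0 and XBP1 at 286 and 814 CPM. DKK1 was at 224 and 2.24 CPM, with 137 UMIs in 12 of the 29 cells, and LINC01133 at 144 and 3.90 CPM, with a UMI in 16 of them. In the whole vehicle library 54 cells had a UMI of DKK1, TGFB2 or ITGB6, with TMSB4X at 5866 CPM. Of the 29 CCL2-positive cells, 14 had such a UMI. In the other 15, set against CCL2-0 vehicle cells without those UMIs, ATP1B1 was at 213 and 51.2 CPM, THBS1 at 207 and 92.2, TMSB4X at 4097 and 1627 and XBP1 at 329 and 819 CPM. IL6, CXCL8, CXCL2 and IL32 had 0 UMIs in the 29 cells, which allows up to 4.91 CPM each. At the limit of 3 UMIs this says little of CXCL8, which was at 0.273 CPM over the vehicle library. With so few cells, 1 cell can set a value, and the ratio covers no spread between cells.

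**Figure D5:**
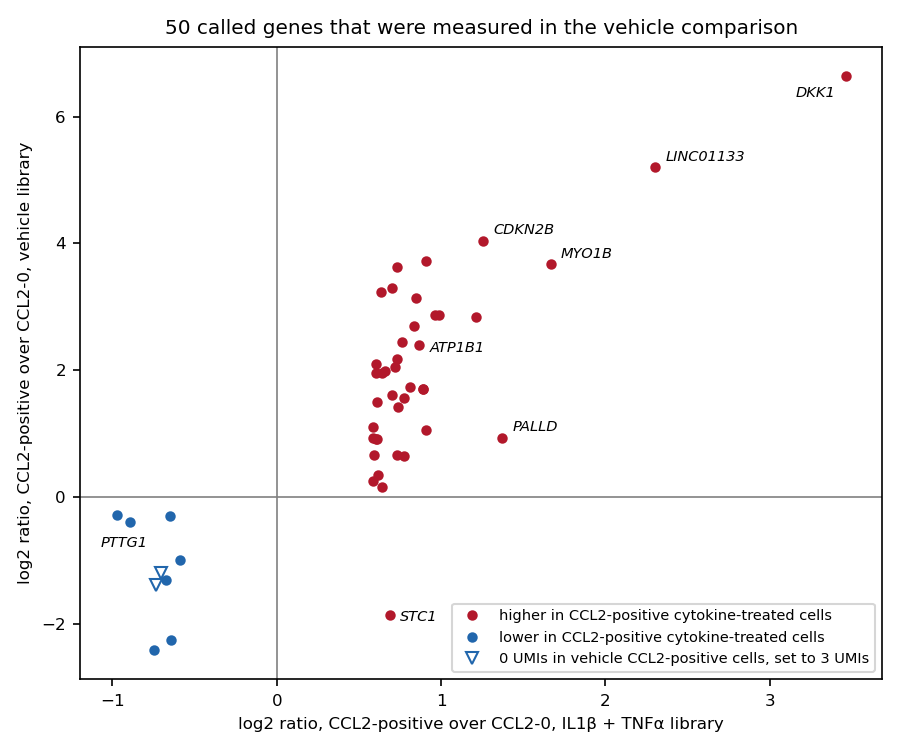
Log2 ratio, CCL2-positive over CCL2-0 cells, in the cytokine-treated library (horizontal) and in the vehicle library (vertical) for the 50 called genes at 5 CPM or more in the vehicle comparison; triangles have 0 UMIs in the 29 vehicle cells and are drawn at 3 UMIs. Of 41 genes higher in treated cells 40 lie above 0 on the vertical axis, DKK1 highest, and STC1 lies below.

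Cells with much CCL2 differed more. Taking the 249 cells with 10 or more CCL2 UMIs against the CCL2-0 cells, 257 of 8704 measured genes were higher and 210 lower, and these held 59 of the 63 and 11 of the 14 genes above. Median depth was 21876 UMIs in the 249 cells. CXCL8 was 2.97-fold and ATP1B1 2.90-fold above CCL2-0 cells, and IL6 was 55.1-fold above. Without the cells that had a UMI of DKK1, TGFB2 or ITGB6, 162 genes were higher and 175 lower, with CXCL8 at 237 CPM, TDO2 at 284 CPM and XBP1 at 809 CPM in the 220 cells that remained.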

How the data were processed

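The deposited matrix holds raw counts of UMIs, which the authors made with Cell Ranger 3.1.0 against GRCh38. A deposited cell table gives the library, the percent of mitochondrial UMIs, a phase call and a cluster for each cell. Per the study's methods, cells with extreme numbers of genes or UMIs or with a high percent of mitochondrial UMIs were removed in Seurat 4.0.4; deposited cells held 3004 to 4995 genes and 9426 to 43121 UMIs. No doublet caller was run here, and an alternative left out the deepest 10% of cells. Members and gene lists were chosen with earlier results of these data known.

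Counts were summed over positive and over CCL2-0 cells (22069529 and 47522917 UMIs) and divided by the sums to give CPM. Ratios carry exact conditional binomial intervals, CPM values exact Poisson intervals and shares Clopper-Pearson intervals, at 95%. UMIs count molecules, and the intervals leave out the spread between cells and cultures. Genes named are the 15 largest and 10 smallest ratios at 20 CPM or more, a fixed set of chemokine, NF-κB and kynurenine genes, up to 4 members per list, and the 10 highest and 5 lowest correlations. DKK1, TGFB2, ITGB6, LINC01133, HIST1H4C, STC1 and MUCL1 were named after their values were seen. Of 929 entries in 32 lists, 767 were in the matrix of 16251 genes. Correlations used ln(1 + 10000 × fraction of the UMIs of the cell). Promoter windows came from RefSeq, and gene positions from GENCODE on GRCh38. The scripts were tested on simulated data. Tools were Python 3.11.15, scipy 1.17.1, edgeR 4.0.16 and DESeq2 1.42.0, the last pair for scaling factors only.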

Additional observations from a re-analysis of the deposited data

How the results depend on the processing

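With 1 library per condition, no value here has a replicate check, and a CCL2 count of 0 can be a missed molecule at these depths. No paired analysis was possible because each group has 1 sample and no test was made. The direction of the named genes that were called held under every alternative except for RRM2 (-0.12) and HIST1H4C (-0.060, against 0.59 over all cells) in G1 cells alone. The number of genes called depended on the limits. It was 97 higher and 34 lower with cells thinned to 15000 UMIs, 110 and 54 with 2 or more CCL2 UMIs, 257 and 210 with 10 or more, 193 and 72 at 1 CPM, 20 and 1 at 20 CPM, 282 and 127 with no filter, 234 and 165 at the 25% limit, and 12 and 2 at 2-fold. Without cells with a UMI of DKK1, TGFB2 or ITGB6 it was 36 higher; that setting, the class of 10 or more, and leaving out the top cell of each gene were chosen after seeing the data. Thinning leaves fewer UMIs and other members, and the cause of the larger counts was not tested. The share of positive cells was 27.2% at 15000 UMIs, 21.4% at 7500 UMIs and 20.2% for 2 or more UMIs. TMM or median-of-ratios scaling subtracts a factor of -0.02 from every log2 ratio, so each is slightly larger. Those scalings, sums that leave out ribosomal and mitochondrial genes, the average CPM over cells, depth or cluster strata, G1 cells alone, a 10% mitochondrial limit and the deepest 10% left out kept both counts within 1.5 times.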

Other observations

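Genes that no comparison above described were looked at by function. Of 37 measured MYC and ribosome biogenesis genes, 23 of cholesterol and fatty acid synthesis and 15 heat shock genes, 0 were higher or lower past 25% in CCL2-positive than in CCL2-0 cells, with list medians of -0.03 to 0.00. Among 22 measured genes of glycolysis and hypoxia, HK2, a hexokinase (11.2 and 15.8 CPM), and SLC2A1, the glucose transporter GLUT1 (6.34 and 8.88 CPM), were lower and 0 were higher. Ribosomal protein genes took 27.4% of UMIs in positive and 26.7% in CCL2-0 cells. IFNGR1, a chain of the interferon gamma receptor, was at 82.2 and 54.7 CPM and reached 113 CPM at 10 or more CCL2 UMIs.

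Of the genes called higher or lower, 10 of the 50 higher genes with a RefSeq window (20%) and 1 of the 10 lower ones (10%) held the NF-κB consensus in the 250 bases before the start site, beside 11.5% of measured genes. The AP-1 consensus was in 5 of the 50 and 0 of the 10, beside 3.46% of measured genes. No test was made of these counts.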
